A study of Mus musculus with 16 samples.

Results

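Avil, Cdsn, Pgm5 and Hal are 4 of the 45796 genes counted in these bone cell cultures. They were selected on their measured levels, as genes better known from other tissues that were among the genes with the largest rises in a single mutant against wild type (WT). In Dmp1KO against WT, the fitted rise of Avil ranked 3rd, that of Cdsn 8th and that of Pgm5 10th of the 16430 genes tested. In Fgf23cKO against WT, the rise of Hal ranked 3rd. Those differences chose the genes, so they are given below as a description with no test, and no threshold separated members from other genes.

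Avil encodes advillin, an actin-regulating protein of the gelsolin and villin family known from sensory neurons and tuft cells. Cdsn encodes corneodesmosin, the adhesion protein that coats desmosomes of the cornified epidermis and helps to hold its dead cells together until they are shed. Pgm5 encodes aciculin, a relative of the phosphoglucomutases that sits at muscle attachment sites, where it binds dystrophin and utrophin. Hal encodes histidine ammonia-lyase, which takes the first step of histidine breakdown in liver and epidermis and there makes urocanic acid.

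RNA was sequenced from 16 libraries of mouse bone marrow stromal cells, 4 for each of 4 genotypes, held for 21 days in medium with ascorbic acid at 50 µg/ml and beta-glycerophosphate at 10 mM, so that they differentiated along the osteoblast line. The donors were adult male C57BL/6J littermates, and in the breeding scheme described for these 4 genotypes every mouse, WT included, carried floxed Fgf23 on both alleles. WT and Fgf23cKO cells had intact Dmp1, the gene of a bone matrix phosphoprotein, whereas Dmp1KO and Dmp1KO/Fgf23cKO cells lacked it in the whole animal. Fgf23cKO and Dmp1KO/Fgf23cKO cells also carried a Cre recombinase under the Dmp1 promoter, which removes the first exon of Fgf23, the gene of a phosphate-lowering bone hormone, in mature osteoblasts and osteocytes. Neither of the other genotypes carried Cre, so Cre and the deletion cannot be told apart. The Cre acts only in cells that use the Dmp1 promoter, and the rest of a culture keeps Fgf23. Fewer mice than libraries are stated per genotype, so some libraries may come from 1 animal, and p-values measure only the spread between libraries, which may be partly technical.

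The libraries held 61.9 to 79.5 M counts. Dmp1 ranged from 329 to 1396 CPM (counts scaled to library size) over the 8 libraries with intact Dmp1 and from 41.2 to 109 CPM over the 8 libraries without it. Fgf23 ranged from 0.0128 to 0.0996 CPM over the 8 libraries with the deletion, against 0.633 to 1.08 CPM over the WT libraries, and from 1.63 to 6.19 CPM over those of Dmp1KO. Both genes therefore separated the genotypes as labelled. Within Dmp1KO/Fgf23cKO, however, Dmp1 stood at 41.2, 43.5, 92.6 and 95.9 CPM in libraries 1 to 4, against 83.0 to 109 CPM over the Dmp1KO libraries. The summed level of 8 osteoblast markers was 50816 to 82525 CPM in WT, 83179 to 100224 in Fgf23cKO, 128274 to 139035 in Dmp1KO, and 60658, 54510, 202442 and 148237 in Dmp1KO/Fgf23cKO libraries 1 to 4. The Dmp1KO/Fgf23cKO libraries thus fell into pairs, and this held over the whole table. On a scale set to 0 at the mean of the WT libraries and to 1 at the mean of the Dmp1KO libraries over the 16430 genes, Dmp1KO/Fgf23cKO libraries 1 and 2 stood at 0.253 and 0.215 and libraries 3 and 4 at 1.06 and 0.974. The Fgf23cKO libraries stood at 0.277 to 0.398. The tested results that rest on the Dmp1KO/Fgf23cKO libraries are therefore also given without either pair.

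The stretches just before the start sites are shown because Avil, Cdsn and Pgm5 followed each other from library to library while Hal did not. Each is the 250 bases before the RefSeq start (GRCm38.p6, the assembly of mm10), read 5′ to 3′ on the strand of the gene, with matches to 9 searched motifs in capitals. Avil lies on the plus strand of chromosome 10, and its window is chr10:127000459-127000708, which lies inside the annotated span of the gene, downstream of its first base. Cdsn lies on the plus strand of chromosome 17 with 2 annotated starts, and the downstream one is shown, at chr17:35551878-35552127. Pgm5 lies on the minus strand of chromosome 19, with its window at chr19:24861843-24862092. Hal lies on the plus strand of chromosome 10, with its window at chr10:93488518-93488767.
Avil: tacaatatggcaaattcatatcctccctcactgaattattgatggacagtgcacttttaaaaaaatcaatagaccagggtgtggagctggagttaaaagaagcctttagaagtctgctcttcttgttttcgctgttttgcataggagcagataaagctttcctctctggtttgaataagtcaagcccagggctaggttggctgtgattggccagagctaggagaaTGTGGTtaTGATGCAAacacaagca
Cdsn: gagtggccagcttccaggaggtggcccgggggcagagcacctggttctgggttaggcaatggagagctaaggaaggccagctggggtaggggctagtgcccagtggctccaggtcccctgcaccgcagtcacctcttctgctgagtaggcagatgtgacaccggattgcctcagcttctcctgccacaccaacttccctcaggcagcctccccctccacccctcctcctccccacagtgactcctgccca
Pgm5: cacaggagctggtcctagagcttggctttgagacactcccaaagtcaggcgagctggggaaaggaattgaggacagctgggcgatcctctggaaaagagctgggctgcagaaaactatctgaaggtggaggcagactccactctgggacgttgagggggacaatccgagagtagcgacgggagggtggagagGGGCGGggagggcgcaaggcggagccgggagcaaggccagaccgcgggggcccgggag
Hal: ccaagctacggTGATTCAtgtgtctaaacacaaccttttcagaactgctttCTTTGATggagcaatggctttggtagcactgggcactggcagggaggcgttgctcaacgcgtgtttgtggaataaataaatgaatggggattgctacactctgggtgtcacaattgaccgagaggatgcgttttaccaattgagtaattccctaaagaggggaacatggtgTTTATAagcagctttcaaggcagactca
The motifs were searched on both strands. They were the RUNX core TGTGGT, the ATF4 and CHOP composite TGATGNAA, AP-1 TGANTCA, TEAD GGAATG, TCF/LEF ATCAAAG, the E-box CACGTG, the GC box GGGCGG, the TATA box TATAAA and the SRF CArG box. The Avil window held TGTGGT 25 to 20 bases before the start and TGATGCAA 17 to 10 bases before it. The first of these motifs occurs in 14.0% and the second in 3.45% of 32851 windows of this length. The Pgm5 window held GGGCGG 58 to 53 bases before the start, which is found in 32.7% of windows. The Hal window held TGATTCA 239 to 233 bases before the start (AP-1, 6.75% of windows), the reverse-strand TCF/LEF match CTTTGAT at 199 to 193 (3.21%), and the reverse-strand TATA box match TTTATA at 28 to 23 (12.4%). Neither Cdsn window held a match, and no motif was shared between the 4 genes. A match is a string of letters in this window and not a measured site.

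Avil had the largest fold difference of the 3 genes that were high in Dmp1KO. Avil (Entrez 11567) spans chromosome 10 from 127000065 to 127020994. In WT libraries 1 to 4 it stood at 1.46, 0.242, 0.520 and 0.535 CPM, and in Fgf23cKO at 0.743, 0.243, 0.585 and 0.526 CPM. Those 8 libraries overlapped, and the highest of them rested on 111 counts. In Dmp1KO it stood at 22.6, 50.6, 47.1 and 45.8 CPM, so that every Dmp1KO library lay above every WT and Fgf23cKO library. In Dmp1KO/Fgf23cKO it stood at 0.311, 0.498, 47.3 and 46.6 CPM, the first 2 inside the WT range and the last 2 inside the Dmp1KO range. The means were 0.690 ± 0.533 CPM in WT, 0.524 ± 0.209 in Fgf23cKO, 41.5 ± 12.8 in Dmp1KO and 23.7 ± 26.9 in Dmp1KO/Fgf23cKO (SD, n = 4 each). The fitted difference between Dmp1KO and WT was 5.92 ± 1.29 on the log2 scale (SE), a 60.5-fold higher level. Each SE printed with ± comes from 1 fit of all 16 libraries and so draws also on the spread within Dmp1KO/Fgf23cKO. With only the WT and Dmp1KO libraries in the fit, the SE was 0.48 for Avil, 0.32 for Cdsn and 0.31 for Pgm5. In bulk RNA, a change in the share of a cell type and a change in RNA per cell cannot be told apart, for this or any other gene here. Within Dmp1KO, library 1 was the lowest, at 54.4% of the group mean.

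Cdsn reached the highest level of the 4 genes per base of transcript. Cdsn (Entrez 386463) spans chromosome 17 from 35543101 to 35557180. WT libraries 1 to 4 had 12.5, 7.08, 6.87 and 11.5 CPM, and the Fgf23cKO libraries had 17.0, 19.4, 17.4 and 10.5 CPM. Only Fgf23cKO library 4 lay inside the WT range, and the fitted difference of these groups was 0.76 ± 0.84 on the log2 scale. The SE was 0.25 with only these groups in the fit. It stood at 145, 304, 346 and 302 CPM in Dmp1KO. The lowest Dmp1KO library was thus 15.3 times the WT mean. It stood at 10.7, 9.99, 302 and 327 CPM in Dmp1KO/Fgf23cKO, again with libraries 1 and 2 inside the WT range. The means were 9.49 ± 2.93 CPM in WT, 16.04 ± 3.86 in Fgf23cKO, 274 ± 88.2 in Dmp1KO and 163 ± 176 in Dmp1KO/Fgf23cKO (SD, n = 4 each). Dmp1KO exceeded WT by 4.85 ± 0.96 on the log2 scale, or 28.9-fold.

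The means of Pgm5 followed the same order of genotypes as those of Cdsn. Pgm5 (Entrez 226041) spans chromosome 19 from 24678261 to 24861842. WT libraries 1 to 4 had 2.83, 1.81, 2.22 and 2.19 CPM, and the Fgf23cKO libraries had 7.20, 7.56, 4.27 and 2.84 CPM. Fgf23cKO library 4 stood level with the highest WT library, at 2.837 against 2.835 CPM, from 205 and 215 counts. The fitted difference of these groups was 1.27 ± 0.77 on the log2 scale, with an SE of 0.30 when only they entered the fit. It stood at 27.5, 75.2, 66.7 and 62.7 CPM in Dmp1KO, where library 1 was at 47.4% of the group mean. It stood at 4.49, 3.29, 53.3 and 67.2 CPM in Dmp1KO/Fgf23cKO. Here libraries 1 and 2 lay above all WT libraries and inside the Fgf23cKO range. The means were 2.26 ± 0.423 CPM in WT, 5.47 ± 2.29 in Fgf23cKO, 58.0 ± 21.0 in Dmp1KO and 32.1 ± 33.02 in Dmp1KO/Fgf23cKO (SD, n = 4 each). The difference between Dmp1KO and WT was 4.68 ± 0.85 on the log2 scale, or 25.6-fold.

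Hal was high in a different genotype. Hal (Entrez 15109) spans chromosome 10 from 93488768 to 93516761. It stood at 0.475, 0.459, 0.437 and 0.586 CPM in WT libraries 1 to 4 and at 34.1, 17.4, 24.5 and 36.5 CPM in Fgf23cKO. The WT libraries lay close together and every Fgf23cKO library was at least 35.6 times their mean. It stood at 15.3, 2.84, 0.229 and 0.124 CPM in Dmp1KO, from 1057 counts down to 9 counts. Dmp1KO libraries 1 and 2 were thus above the WT range, libraries 3 and 4 below it, and all 4 below the Fgf23cKO range. It stood at 0.287, 0.747, 7.41 and 8.57 CPM in Dmp1KO/Fgf23cKO, with library 1 below the WT range and the others above it. The means were 0.489 ± 0.0662 CPM in WT, 28.2 ± 8.85 in Fgf23cKO, 4.63 ± 7.24 in Dmp1KO and 4.25 ± 4.34 in Dmp1KO/Fgf23cKO (SD, n = 4 each). The difference between Fgf23cKO and WT was 5.84 ± 1.36 on the log2 scale, or 57.4-fold, with an SE of 0.28 when only these groups entered the fit. The difference between Dmp1KO and WT was 3.24 ± 1.25 and fell to 1.13 without Dmp1KO library 1.

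**Figure D1:**
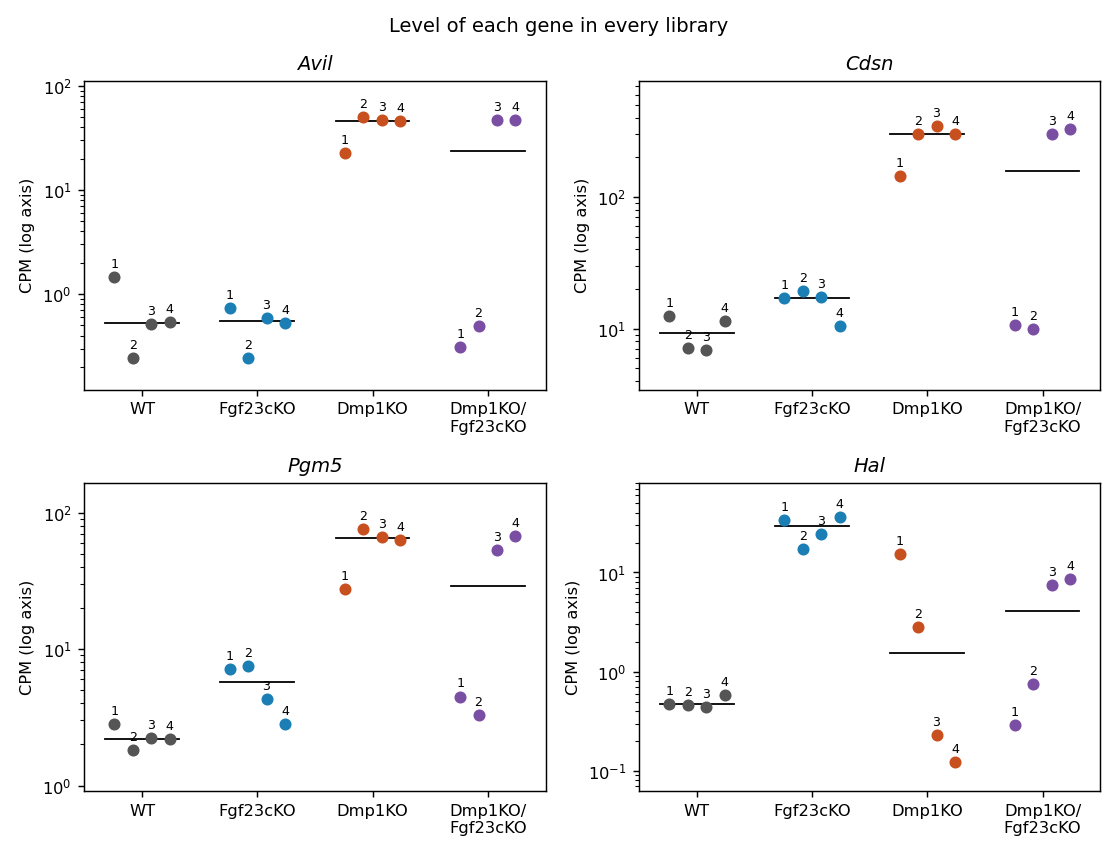
Level of Avil, Cdsn, Pgm5 and Hal in CPM on a log axis (y) in every library, by genotype (x). Points are libraries with their number, and bars are group medians. For Avil, Cdsn and Pgm5 the Dmp1KO/Fgf23cKO libraries 3 and 4 sit with Dmp1KO and libraries 1 and 2 far below, whereas Hal is highest in the 4 Fgf23cKO libraries, at 17.4 to 36.5 CPM.

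Per kilobase of exon, the order of levels in Dmp1KO was Cdsn at 102, Pgm5 at 16.1, Avil at 12.2 and Hal at 0.835 CPM per kilobase. Among the 15892 tested genes with a known length, the Cdsn level in Dmp1KO exceeded that of 98.2% of genes, against 51.4% in WT. The Pgm5 level moved from above 25.1% of genes in WT to above 83.7% in Dmp1KO, and the Avil level from above 14.8% to above 78.7%. The Hal level moved from above 7.82% in WT to above 59.1% in Fgf23cKO.

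The comparison of Dmp1KO/Fgf23cKO with Fgf23cKO asks what loss of Dmp1 did where Fgf23 was deleted in both groups. It shares no library with the comparison that chose Avil, Cdsn and Pgm5, so it was tested. All 3 genes had a higher mean in Dmp1KO/Fgf23cKO, and none passed the edgeR quasi-likelihood test after Benjamini-Hochberg adjustment over the 16430 genes. The differences were 5.49 ± 1.29 for Avil (95% interval 2.72 to 8.25, adjusted p = 0.0531 by edgeR), 3.34 ± 0.90 for Cdsn (1.42 to 5.26, adjusted p = 0.0736) and 2.55 ± 0.77 for Pgm5 (0.91 to 4.19, adjusted p = 0.101), all on the log2 scale with SE. In this comparison 1.27% of all genes passed. The Dmp1KO/Fgf23cKO libraries lay above every Fgf23cKO library in 2 of 4 cases for each gene.

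These 3 values turned on which libraries entered. Without Dmp1KO/Fgf23cKO libraries 1 and 2 the differences were 6.47 for Avil, 4.29 for Cdsn and 3.45 for Pgm5, with edgeR adjusted p = 1.12e-05, 1.18e-05 and 8.73e-05. Without libraries 3 and 4 they were -0.38, -0.63 and -0.49, with adjusted p = 0.875, 0.532 and 0.708. Either pair was left out for where it lay over all genes, so these p-values describe the remaining libraries and are no independent support. The tools also differed. With the DESeq2 Wald test on all libraries, the 3 genes passed, at adjusted p = 0.000119 for Avil, 0.00423 for Cdsn and 0.0192 for Pgm5. It called 6.49% of the genes to which it gave an adjusted p-value. With limma, which takes the mean of log2 values in each group, the differences were smaller, at 3.11, 1.87 and 1.58, and none passed (adjusted p = 0.230, 0.307 and 0.306). None passed either when edgeR was fitted to the libraries of both groups alone (adjusted p = 0.250, 0.294 and 0.328).

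Deletion of Fgf23 in cells without Dmp1 was compared for Hal, since Dmp1KO/Fgf23cKO against Dmp1KO shares no library with the comparison that chose it. Hal differed by -0.13 ± 1.09 on the log2 scale (95% interval -2.47 to 2.202, adjusted p = 0.965 by edgeR), and the groups overlapped. The interval is wide and leaves out neither a several-fold rise nor a several-fold fall. Only 0.0183% of all genes passed in this comparison. The sign depended on single libraries, with 1.98 (adjusted p = 0.315) without Dmp1KO library 1 and 0.26 or 0.22 without Dmp1KO/Fgf23cKO library 1 or 2. Without Dmp1KO/Fgf23cKO libraries 1 and 2 together it was 0.78, and without libraries 3 and 4 it was -3.16.

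The remaining comparisons share libraries with those that chose the genes and are given as values only. Against WT, the Dmp1KO/Fgf23cKO means differed by 5.11 ± 1.26 for Avil, 4.10 ± 0.93 for Cdsn, 3.82 ± 0.82 for Pgm5 and 3.11 ± 1.25 for Hal on the log2 scale (SE). Without Dmp1KO/Fgf23cKO libraries 3 and 4 these were -0.75, 0.13, 0.79 and 0.08. Against Dmp1KO, the Dmp1KO/Fgf23cKO means differed by -0.81 ± 1.02 for Avil, -0.75 ± 0.82 for Cdsn and -0.86 ± 0.72 for Pgm5, and without libraries 3 and 4 by -6.67, -4.72 and -3.89. Hal in Dmp1KO/Fgf23cKO against Fgf23cKO differed by -2.74 ± 1.14, and all 4 Dmp1KO/Fgf23cKO libraries were below the 4 Fgf23cKO libraries. The highest Dmp1KO/Fgf23cKO library reached 30.4% of the Fgf23cKO mean.

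**Figure D2:**
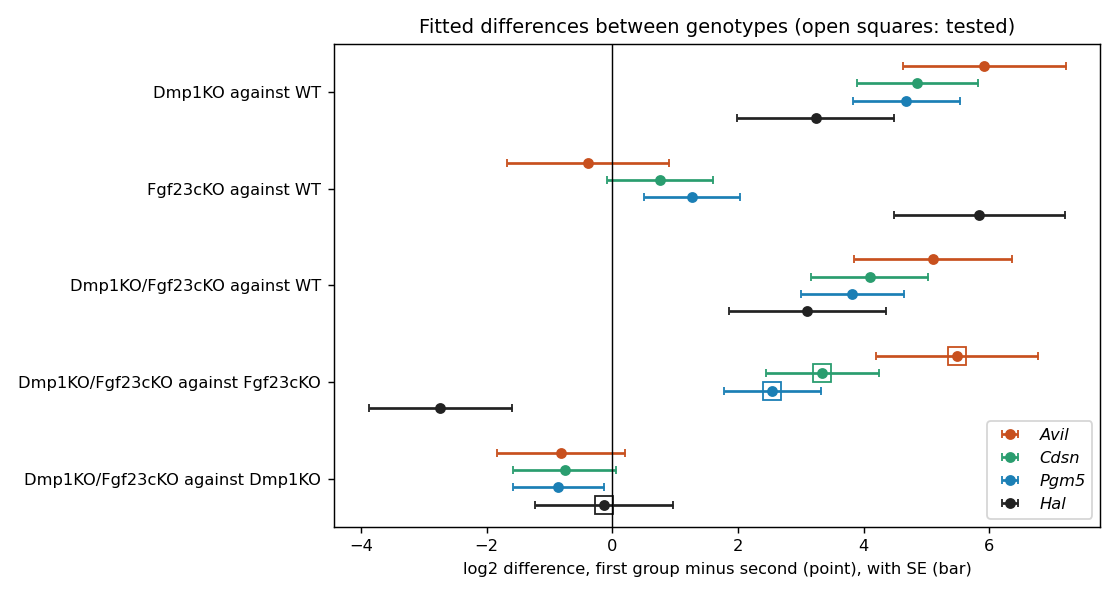
Fitted log2 differences (x, first genotype minus second, point with SE bar) of the 4 genes in 5 comparisons (y). Open squares mark the comparisons that were tested, where Avil, Cdsn and Pgm5 stood at 5.49, 3.34 and 2.55 and Hal at -0.13.

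Avil, Cdsn and Pgm5 moved together over the libraries as a whole. Within Fgf23cKO, though, Avil was lowest in library 2, at 0.243 CPM, where Cdsn and Pgm5 were highest, at 19.4 and 7.56 CPM. Over the 16 libraries, Pearson's r of the log2 CPM was 0.987 for Cdsn with Pgm5, 0.974 for Avil with Cdsn and 0.944 for Avil with Pgm5. After the mean of each genotype was taken away, r was 0.973, 0.953 and 0.909. These values are descriptions, since the libraries fall into separate groups and share genotypes, and much of the remaining spread is that between the pairs of Dmp1KO/Fgf23cKO libraries. Hal had r of -0.05 with Avil, 0.03 with Cdsn and 0.06 with Pgm5, and 0.505, 0.430 and 0.366 after the genotype means were taken away. Within Dmp1KO, Hal was highest in library 1, where the others were lowest. From library 2 to library 4, Hal fell from 2.84 to 0.124 CPM, and Avil and Pgm5 fell in the same order. Cdsn was highest in library 3. Within the 4 Dmp1KO/Fgf23cKO libraries Hal ran with the others, being higher in libraries 3 and 4. Dmp1KO library 1 also had the lowest summed muscle markers of the group, 345 against 724 to 973 CPM, and its part in the Hal value was not tested.

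**Figure D3:**
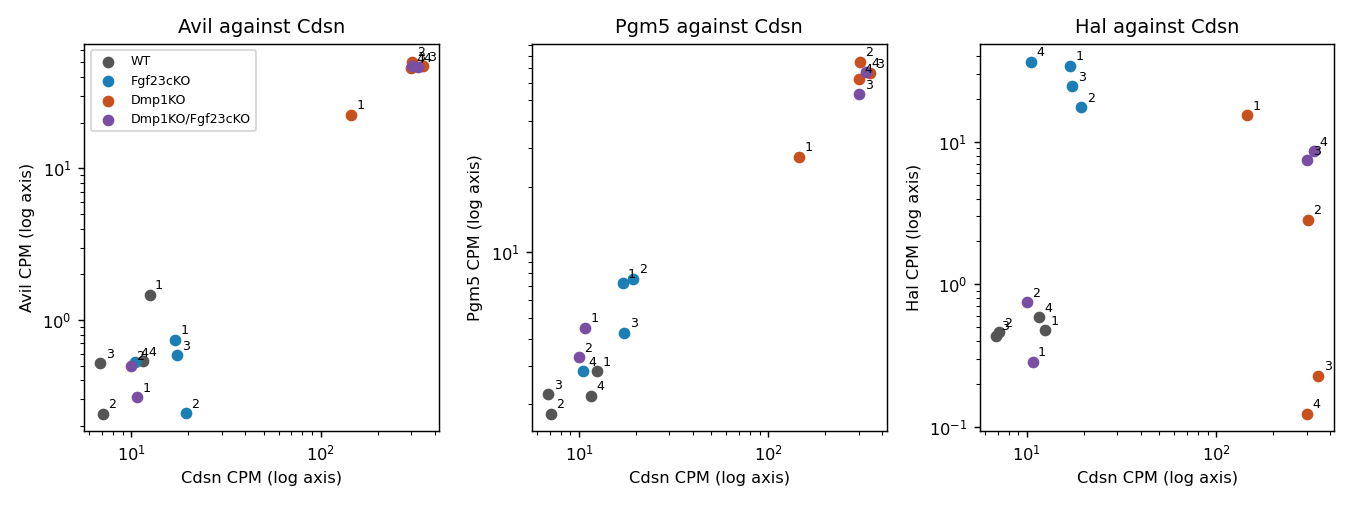
CPM of Avil, Pgm5 and Hal (y) against Cdsn (x) on log axes, with 1 point per library, coloured by genotype and numbered. Avil and Pgm5 rise along with Cdsn (r of 0.974 and 0.987), while Hal is spread from 0.124 to 15.3 CPM among the Dmp1KO libraries, where Cdsn was 145 to 346 CPM.

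The genes whose log2 CPM was most like that of each member were sought among 12290 named genes whose mean level was 1 CPM or more. The genes most like Avil were Adm2 (r = 0.989), which encodes the peptide hormone adrenomedullin 2, Xpot (0.981), which exports tRNA from the nucleus, Chac1 (0.980), which degrades glutathione, Pck2 (0.979), the mitochondrial phosphoenolpyruvate carboxykinase, and Slc7a3 (0.978), a transporter of cationic amino acids. Those most like Cdsn were Chac1 (0.991), Pck2 (0.988), Pgm5 (0.987), Aldh1l2 (0.987), a mitochondrial folate enzyme, and Gars (0.985), the glycyl-tRNA synthetase. Those most like Pgm5 were Cdsn (0.987), the small nucleolar RNA host transcript Snhg12 (0.974), Mthfd2 (0.974), a mitochondrial folate enzyme, Pck2 (0.973) and Chac1 (0.972). Such likeness was common, since 328 genes had r above 0.9 with Avil, 398 with Cdsn and 342 with Pgm5.

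Chac1 and Pck2 stood on all 3 lists. Chac1 had a mean of 4.35 CPM in WT, 6.05 in Fgf23cKO and 42.98 in Dmp1KO, and stood at 5.09, 4.10, 68.7 and 44.5 CPM in Dmp1KO/Fgf23cKO libraries 1 to 4. Pck2 had means of 34.4, 40.3 and 116 CPM and stood at 34.7, 29.3, 144 and 113 CPM in Dmp1KO/Fgf23cKO. Adm2 had means of 0.401, 0.410 and 4.32 CPM and stood at 0.191, 0.349, 5.60 and 5.64 CPM. Each showed the split of the Dmp1KO/Fgf23cKO libraries into a low and a high pair.

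Hal had few genes like it, with 3 of the 12290 above r = 0.9. These were Rnf115 (0.939), a ubiquitin ligase, Kdm2a (0.938), a histone demethylase, and Dyrk1a (0.929), a protein kinase. The next were Id2 (0.894), an inhibitor of helix-loop-helix transcription factors, and Tmem189 (0.891), which makes plasmalogen lipids. Their differences were much smaller than that of Hal. Between WT and Fgf23cKO the mean of Rnf115 went from 39.8 to 46.3 CPM and that of Id2 from 44.97 to 90.002 CPM.

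**Figure D4:**
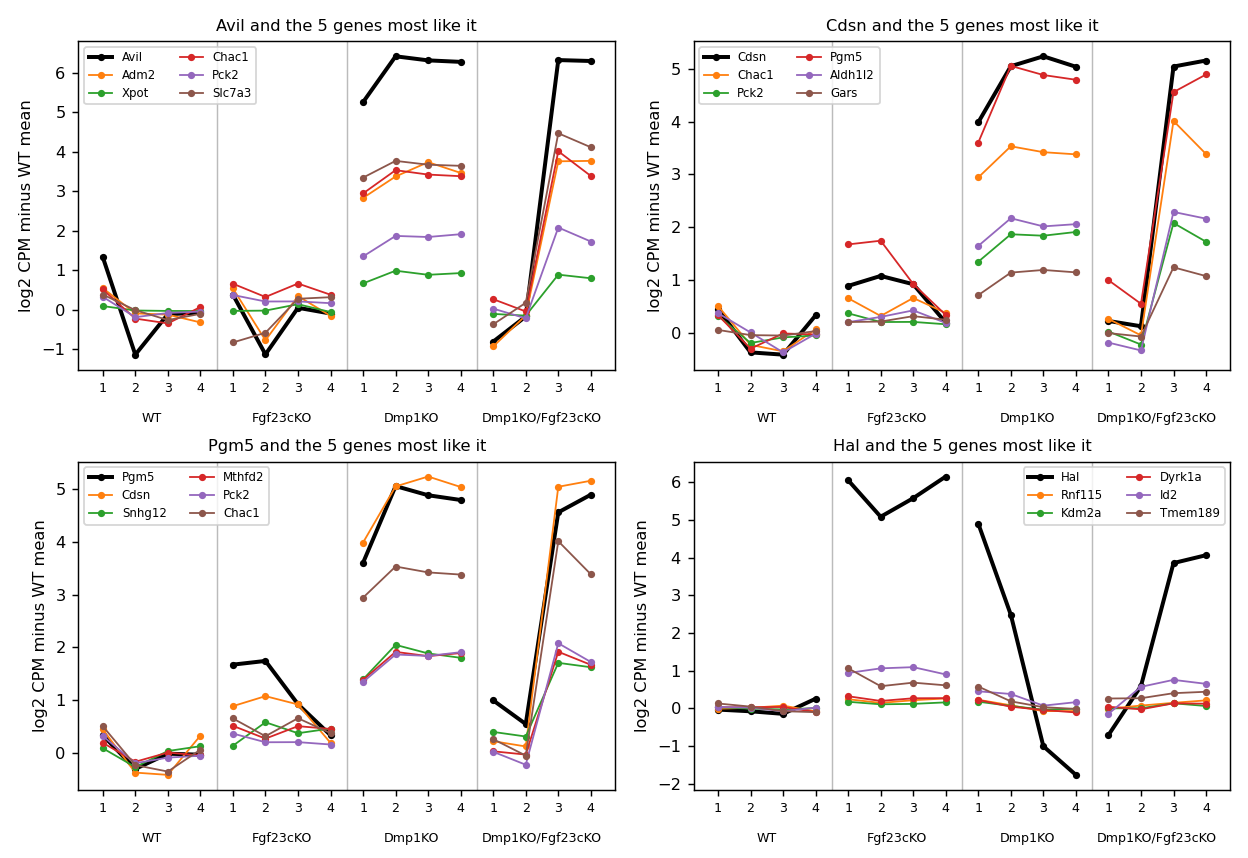
Log2 CPM minus the WT mean (y) of each member (thick black line) and the 5 genes most like it (coloured lines), in the 16 libraries by genotype (x, with library numbers). Avil, Cdsn and Pgm5 and their companions are low in Dmp1KO/Fgf23cKO libraries 1 and 2, and Hal moves over a far wider range than its companions.

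The relatives and partners of the 4 genes were counted in 5 lists holding 50 tested genes. In Dmp1KO against WT, 17 of the 50 passed the edgeR test, 6 higher and 11 lower, where 33.8% of all genes passed, 18% higher and 15.8% lower. The count was 10 without WT library 3 or WT library 4 and 11 without Dmp1KO library 3, where 26.3%, 24.8% and 24.5% of all genes passed. In Fgf23cKO against WT, 3 of the 50 passed, where 11.4% of all genes did. In Dmp1KO/Fgf23cKO against Fgf23cKO and against Dmp1KO, 0 of the 50 passed by edgeR, where 1.27% and 0.0183% of all genes did. At an unadjusted p under 0.05 in edgeR there were 2 and 12 in these comparisons. The share of all genes at that unadjusted cut was not counted, so these 2 counts cannot be set against it. DESeq2 called 1 in each, Ftcd and Jup, where it called 6.49% and 1.11% of the genes to which it gave an adjusted p-value. By limma 0 were called in each. Without Dmp1KO/Fgf23cKO libraries 1 and 2, 18 of the lists' genes passed against Fgf23cKO and 0 against Dmp1KO, where 27.6% and 0.142% of all genes passed. Without libraries 3 and 4, 0 passed against Fgf23cKO and 22 against Dmp1KO, where 0.589% and 24.9% of all genes passed.

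Of the 7 other members of the gelsolin and villin family tested in Dmp1KO against WT, 1 passed, where 33.8% of all genes did. The median difference was -0.16 on the log2 scale, against -0.02 over all genes. Capg, which caps actin filaments, rose 1.35-fold in Dmp1KO (log2 0.43 ± 0.13, adjusted p = 0.0212 by edgeR), from 128 to 172 CPM. It also rose 1.75-fold in Fgf23cKO (log2 0.81 ± 0.13, adjusted p = 0.00183). Gsn, the gelsolin gene, had means of 299.9 CPM in WT and 322 CPM in Dmp1KO.

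Of the epidermal genes that work with Cdsn, 13 of 29 had enough counts to be tested. In Dmp1KO 1 rose and 4 fell, where 18% of all genes rose and 15.8% fell. The median was -0.997 over the 13, against -0.02 over all genes. Krt10, a keratin of the upper epidermis, rose 2.25-fold from 1.04 to 2.35 CPM (adjusted p = 0.000829 by edgeR). Tgm1 and Tgm3, transglutaminases that cross-link the cornified envelope, fell from 1.53 to 0.122 CPM (adjusted p = 0.00257) and from 0.517 to 0.197 CPM (adjusted p = 0.0479). Jup, the desmosomal protein plakoglobin, fell from 37.8 to 22.9 CPM (adjusted p = 0.00594), and Ppl, or periplakin, from 0.552 to 0.204 CPM (adjusted p = 0.0310). Klk5 and Sprr1b were at 0 in all libraries. In Fgf23cKO 0 of the 13 passed by edgeR, DESeq2 or limma, where 11.4%, 17% and 11.6% of all genes did. The 17% is of the genes to which DESeq2 gave an adjusted p-value. At an unadjusted p under 0.05 in edgeR there were 2, and the share of all genes at that cut was not counted.

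For Pgm5, the phosphoglucomutases and the proteins of muscle junctions were counted. Of the 4 phosphoglucomutase genes, Pgm3 rose 1.40-fold in Dmp1KO, from 37.4 to 52.5 CPM (adjusted p = 0.0332 by edgeR), and Pgm2l1 fell from 110 to 53.8 CPM (adjusted p = 0.0174). Of the 18 tested genes of cell-matrix junctions and the dystrophin complex, 6 passed in Dmp1KO, of which 5 fell, with a median of -0.31. Over all genes 33.8% passed and 15.8% fell, so the number that passed was near the general share. Dmd, the gene of dystrophin, the binding partner of aciculin, fell from 9.02 to 2.47 CPM (log2 -1.87 ± 0.46, adjusted p = 0.00755). The adhesion proteins Tln1 and Parva fell from 715 to 546 CPM and from 183 to 137 CPM (adjusted p = 0.0105 and 0.0160). Ilk and Flnc also fell. In Fgf23cKO Sgce, a sarcoglycan, fell from 30.2 to 24.1 CPM (adjusted p = 0.0285).

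Of the histidine genes, 8 of 13 had enough counts to be tested. In Fgf23cKO, where Hal was highest, 1 passed by edgeR, against 11.4% of all genes. It was Cndp2, a dipeptidase, which rose from 105 to 152 CPM (adjusted p = 0.0105 by edgeR). The enzymes that follow Hal in histidine breakdown were low. Amdhd1 had means of 0.00604 CPM in WT and 0.102 CPM in Fgf23cKO (adjusted p = 0.159), Ftcd of 0.497 and 0.763 CPM (adjusted p = 0.291), and Uroc1, at 0.0621 and 0.0342 CPM, was too low to be tested. In Dmp1KO 3 of the 8 passed by edgeR, 2 higher and 1 lower. Over all genes 33.8% passed, so the number was near the general share. Hars, the histidyl-tRNA synthetase, rose from 34.9 to 48.1 CPM (adjusted p = 0.00752), and Ftcd fell to 0.241 CPM (adjusted p = 0.0437). Amdhd1 rose to 0.182 CPM (adjusted p = 0.0406), though it was at 0 in Dmp1KO libraries 3 and 4 and limma did not call it.

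**Figure D5:**
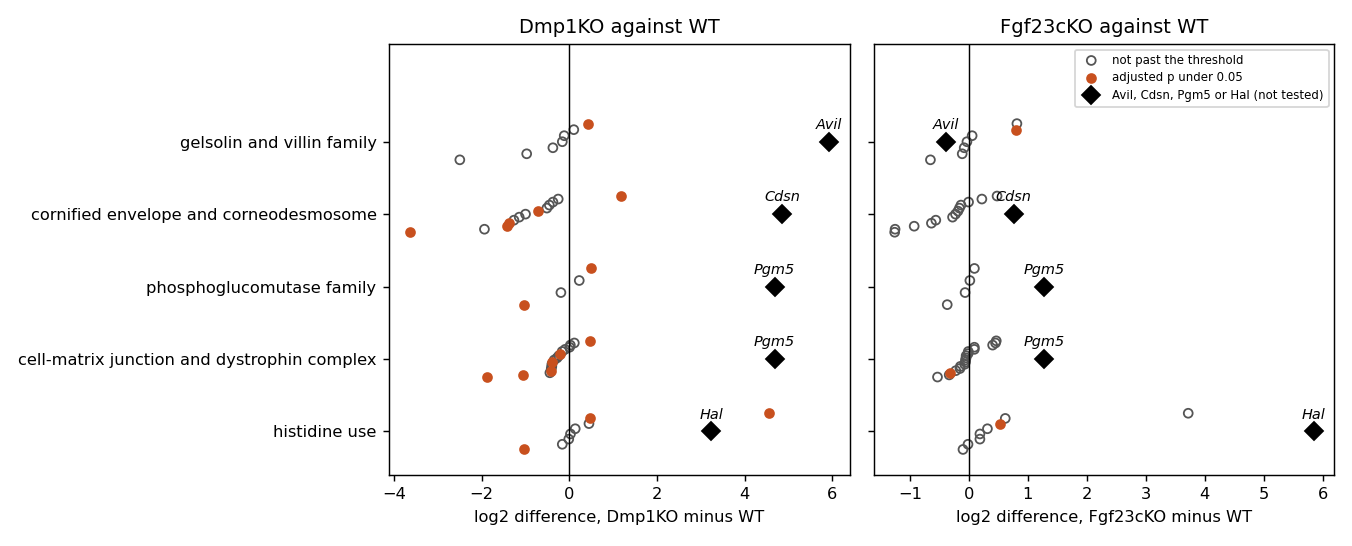
Log2 differences (x) of the tested genes of 5 lists (y) in Dmp1KO and in Fgf23cKO against WT. Filled circles passed at an adjusted p under 0.05, open circles did not, and diamonds are the 4 chosen genes, which were not tested. In Dmp1KO the median was -0.16 for the gelsolin family, -0.997 for the cornified envelope and 0.02 for the phosphoglucomutases. It was -0.31 for the junction genes and 0.08 for histidine use. Past the threshold were 17 genes in Dmp1KO and 3 in Fgf23cKO, where 33.8% and 11.4% of all genes were.

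Markers of the cell types in which the 4 genes are best known were summed in each library. For keratinocytes, where Cdsn and Hal are known, the 12 markers summed to 5.07 to 6.25 CPM in WT, 8.91 to 10.7 in Fgf23cKO, 5.98 to 9.63 in Dmp1KO and 8.33 to 12.6 in Dmp1KO/Fgf23cKO, and 4 of 12 could be tested. Krt6a was at 0 in all libraries, and the group means of Krt5 were 0 to 0.0485 CPM and those of Krt14 0.0342 to 0.107 CPM. Among the 4 tested, only Epcam passed in Dmp1KO, rising from 0.264 to 2.13 CPM (adjusted p = 0.0139 by edgeR), where 33.8% of all genes passed. Only Sfn passed in Fgf23cKO, rising from 4.01 to 7.88 CPM (adjusted p = 0.00441), where 11.4% of all genes passed. Sfn made up most of the keratinocyte sum in WT and in Fgf23cKO. Of the 10 hepatocyte markers 1 could be tested, and their sum was at most 0.306 CPM in Fgf23cKO, with Tat at 0 in all libraries.

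For Avil, the 12 sensory neuron markers summed to 38.8 to 52.2 CPM in WT. Most of that sum was Tubb3, a tubulin, with means of 41.4 CPM in WT and 66.5 CPM in Dmp1KO. In Dmp1KO libraries 1 to 4 they summed to 33.5, 70.8, 84.1 and 86.5 CPM. In Dmp1KO, Isl1 and Tubb3 rose and Scn10a fell among the 5 tested, where 18% of all genes rose and 15.8% fell. Isl1 was low, at 0.276 ± 0.256 CPM in Dmp1KO (SD, n = 4) and at 0 in every WT library. Isl1 also rose in Fgf23cKO, where Avil was low, to a mean of 0.166 CPM (adjusted p = 0.0411 by edgeR). In Dmp1KO/Fgf23cKO libraries 3 and 4, where Avil was high, the sum was 40.01 and 57.4 CPM, against 41.6 and 40.7 CPM in libraries 1 and 2. The 8 tuft cell markers had sums of 74.9 to 121 CPM over the WT libraries against 35.7 to 52.6 CPM over the Dmp1KO libraries. The 2 that could be tested, Alox5 and Dclk1, both fell in Dmp1KO, where 15.8% of all genes did. They made up nearly all of the sum, with WT means of 32.7 and 74.1 CPM. For Pgm5, the 12 muscle markers had sums of 1049 to 1577 CPM over the WT libraries against 345 to 973 CPM over the Dmp1KO libraries. In Dmp1KO 4 of 8 tested fell, namely Myh11, Des, Cnn1 and Tagln, where 15.8% of all genes did. Most of the muscle sum was Acta2 and Tagln, at WT means of 873 and 411 CPM. In Dmp1KO/Fgf23cKO the muscle sum was 1385 and 1373 CPM in libraries 1 and 2, where Pgm5 was low, and 600 and 681 CPM in libraries 3 and 4. The part of these cell types in the levels of the 4 genes was not tested.

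Markers of blood cells were summed too. The 10 neutrophil markers summed to 5.85 to 13.1 CPM and the 8 mast cell and basophil markers to 3.44 to 12.4 CPM over the 16 libraries. S100a9 was listed at 0 throughout, and Kit fell in Fgf23cKO (adjusted p = 0.0372 by edgeR). Of the 8 osteoblast markers 5 rose in Dmp1KO, namely Bglap, Col1a1, Col1a2, Sp7 and Alpl, where 18% of all genes did.

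Neighbouring genes were examined to see whether a wider stretch of chromosome moved with each member. Next to Avil, Ctdsp2, which ends 90 bases before it, did not pass, at 149 ± 6.36 CPM in WT and 159 ± 10.6 in Dmp1KO (SD, n = 4 each, log2 0.09 ± 0.07, adjusted p = 0.366 by edgeR). On the other side, Tsfm, a mitochondrial translation factor, rose from 7.31 to 10.6 CPM (log2 0.53 ± 0.11, adjusted p = 0.0025), and Eef1akmt3 and Mettl1, both methyltransferases, rose by log2 0.82 ± 0.21 and 0.70 ± 0.18. In the GENCODE M21 annotation Tsfm, on the minus strand from 127011572 to 127030840, overlaps Avil, so without knowledge of strand some reads of the pair cannot be told apart. In Dmp1KO/Fgf23cKO libraries 1 to 4 Tsfm stood at 7.36, 6.71, 9.35 and 8.79 CPM.

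Next to Cdsn, Tcf19 and Cchcr1 were the only tested neighbours, and neither passed in Dmp1KO against WT (log2 0.02 ± 0.20 and -0.04 ± 0.19, adjusted p = 0.956 and 0.890 by edgeR). Tmem252 overlaps the end of Pgm5 on the opposite strand and rose from 0.0924 to 0.536 CPM in Dmp1KO (log2 2.52 ± 0.62, adjusted p = 0.00712). Cbwd1, 57787 bases away, rose from 6.49 to 9.06 CPM (log2 0.48 ± 0.16, adjusted p = 0.0292), and Pip5k1b on the other side did not pass (log2 -0.76 ± 0.41, adjusted p = 0.162). Over the neighbours of these 3 genes, 5 of 9 tested rose in Dmp1KO by edgeR, where 18% of all genes did. Among those that rose, Tsfm and Tmem252 overlap Avil and Pgm5, Tsfm in GENCODE only. Without knowledge of strand, some reads of these pairs cannot be told apart.

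Next to Hal, the 4 tested neighbours had adjusted p of 0.159 to 0.557 by edgeR in Fgf23cKO against WT. The nearest, Lta4h, 3872 bases away, had means of 48.5 ± 2.95 CPM in WT and 50.6 ± 0.354 in Fgf23cKO (SD, n = 4 each, adjusted p = 0.551 by edgeR). Amdhd1, which acts 2 steps after Hal in histidine breakdown, lies 6577 bases away on the other strand and reached at most 0.580 CPM in any library. It stood at 0.580, 0.149, 0 and 0 CPM in Dmp1KO libraries 1 to 4, the same 2 libraries being above 0 that were above WT for Hal.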

How the data were processed

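The authors made TruSeq total RNA libraries, read them as 50 bp pairs and mapped them to mm10 in StrandNGS. Its version, gene models and strand setting were not given in the sources used here. Values deposited per gene are expected counts, of which 33.4% were not whole (tolerance 1e-06). Further deposited tables hold the authors' log2 values, normalized with DESeq and centred on the median, and fold changes with p-values, none of which were used here. A count shared by overlapping genes depends on how reads were assigned.

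Groups came from the genotype labels. Libraries were numbered in the order listed, and the numbers pair no samples. Expected counts were rounded and tested with edgeR 4.0.16 in R 4.3.3 (quasi-likelihood F test, TMM, robust, filterByExpr with a minimum count of 10 and total of 15), with all 16 libraries in 1 fit. Adjusted p-values of the main fit are Benjamini-Hochberg values over 16430 genes, with a threshold of 0.05. Fits with libraries left out, with only the libraries compared or without the filter adjusted over their own tested genes. Shares of genes called by DESeq2 are of those to which it gave an adjusted p-value. CPM are counts scaled by TMM-adjusted totals, and log2 CPM used a prior count of 2. Alternatives were DESeq2 1.42.0, limma 3.58.1, DESeq2 size factors, no filter, only the libraries compared, and leaving out libraries. The fit was tested on simulated data. The 44557 genes matched by Entrez ID took positions from RefSeq, as did the windows before start sites.

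Named were the 4 genes, up to 4 called genes per list (the rest as counts or names), the 5 genes most like each by Pearson's r, neighbours within 3 genes on each side, Dmp1 and Fgf23. Gsn, Uroc1, Ilk, Flnc and single markers were named outside that rule, after their values were seen. The values of 1 further called list gene are not reported here. The members and lists were chosen with earlier results of these data known.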

Additional observations from a re-analysis of the deposited data

Results flagged for a closer look

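Of 16 groups of 4 libraries tested for a value far from the others, 4 genes in 4 genotypes, 1 stood out, which is about what chance gives at 1 in 20 groups. Avil in Dmp1KO library 1 was at 22.6 CPM while the other 3 libraries were at 45.8 to 50.6 CPM. Its gap to the nearest library was 0.831 of the range of the group, just above Dixon's critical value. The same library was also the lowest of its group for Cdsn and Pgm5 and the highest for Hal.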

How the results depend on the processing

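The differences that chose or share libraries with a choice moved by less than the SD between libraries in 216 of 224 alternatives, and by more in the 8 without Dmp1KO/Fgf23cKO libraries 3 and 4. That SD was wide, and moves within it were large with limma, which took Avil in Dmp1KO/Fgf23cKO from log2 5.11 to 2.91 against WT and from -0.81 to -3.15 against Dmp1KO, and Hal in Dmp1KO against WT from 3.24 to 1.16. Hal was at 1.13 there without Dmp1KO library 1. The tested values depended on libraries and tool. In Dmp1KO/Fgf23cKO against Fgf23cKO, Avil was at log2 5.49 by the DESeq2 Wald test, 6.47 without Dmp1KO/Fgf23cKO libraries 1 and 2, -0.38 without libraries 3 and 4, and 4.90 to 5.90 with single libraries left out. The same 4 settings gave Cdsn 3.34, 4.29, -0.63 and 2.75 to 3.73, and Pgm5 2.55, 3.45, -0.49 and 1.89 to 2.93. With limma they were at 3.11, 1.87 and 1.58 (adjusted p of 0.230 to 0.307), and with both groups alone in edgeR the adjusted p was 0.250 to 0.328. DESeq2, leaving out libraries 1 and 2 together, and leaving out either brought all 3 past the threshold, with edgeR adjusted p of 0.0123 to 0.0418 for the single libraries and up to 0.323 over all single libraries left out. Without libraries 3 and 4 the sign turned, since only the low pair remained. Hal in Dmp1KO/Fgf23cKO against Dmp1KO turned to 0.80 with limma and 0.78 without libraries 1 and 2, and ran from -0.73 to 1.98 with single libraries left out, turning sign without Dmp1KO library 1 (1.98) or Dmp1KO/Fgf23cKO library 1 (0.26) or 2 (0.22). It passed in none of these.

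Of the 50 list genes, 17 passed in Dmp1KO against WT, and 10 to 16 with single libraries left out, where 24.5% to 34.6% of all genes passed. In Fgf23cKO against WT, 3 passed (11.4% of all genes), and 2 to 3 with single libraries left out (5.89% to 9.83%). When only both groups entered the fit 6 passed, and the share of all genes in that fit was not counted. In Dmp1KO/Fgf23cKO against Fgf23cKO, 0 passed, 1 by DESeq2 (6.49% of the genes it gave an adjusted p-value), 18 without libraries 1 and 2 (27.6% of all genes), and 0 to 1 with single libraries left out (0.09% to 7.91%). Against Dmp1KO, 0 passed, 1 by DESeq2 (1.11%) and 22 without libraries 3 and 4 (24.9%). The counts without either pair were added after the data were seen, and the cause of these shifts was not tested. Depth limits Avil and Hal where they are low, down to 18 and 9 counts in a library. No paired analysis was possible because the labels give no replicate numbers shared between genotypes.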
